A study of Pleurotus ostreatus with 32 samples.

Results

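Mature stipe was compared with vegetative mycelium in the oyster mushroom Pleurotus ostreatus, over all genes. The stipe is the stalk of the mushroom and carries no spore-bearing surface, so it is a sterile fruiting tissue at the end of its growth. The samples were chosen by their titles: the 3 libraries of stipe from fruiting bodies not called young, termed mature here, and the 3 libraries of vegetative mycelium, which together are 6 of the 32 libraries of the series. All groups are of strain N001, a dikaryon, whose cells carry nuclei from both parents side by side, and the labels give no mutation or treatment for any group. Per the labels' protocols, the fungus was raised as spawn in bags at 18 to 19 °C, 80 to 85% relative humidity and 8 h of light to 16 h of dark. Per the labels, each replicate pooled tissue of 3 to 8 fruiting bodies, so variation between single bodies is not seen. The labels repeat this for the mycelium, which has no fruiting bodies, so what its replicates pooled is not known. The protocol calls the replicates biological and gives no age for the mycelium or the mature bodies. The other 26 libraries cover stage 1 primordia (young fruiting initials, the earliest fruiting group of the series), cap and stipe of stage 3 primordia and of young bodies, and cap, lamellae, skin and dedifferentiated cap of mature bodies.

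A mushroom is built from the same kind of threads, the hyphae, as the mycelium. Mycelium grows through wood or straw and secretes enzymes that break down cellulose and lignin, and it takes up the sugars released. Stipe hyphae lie side by side, lengthen, and lift the cap into the air, fed by the mycelium below. Cell walls of chitin and glucan are rebuilt as they lengthen. The genes bear only numbers in the files, and 0 identifiers matched the 11849 entries of the reference gene list, which describes another assembly, so no gene is given a name, product, position or family here, and defining markers of stipe or mycelium could not be looked up. No sequence is shown for the same reason. In bulk tissue, fewer cells of a type and less RNA per cell cannot be told apart.

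The libraries grouped by their labels. Total counts ran from 13952458 to 15441634 in mature stipe and from 13782686 to 17307800 in mycelium. Each of the 6 libraries had its nearest library in its own group. Spearman correlations across genes were 0.977 to 0.992 among the stipe libraries and 0.857 to 0.937 among the mycelium libraries. The median SD of log2 CPM between replicates was 0.23 in stipe and 0.52 in mycelium, where CPM is the count of a gene relative to the library total after TMM scaling, a correction for differences in RNA composition. Stipe replicates were therefore more alike than mycelium replicates, and mycelium replicate 2 lay farthest from the others. Between the groups the correlations were 0.727 to 0.759. Median correlations with mycelium were 0.686 for stage 1 primordia, 0.680 for young stipe, 0.752 for mature stipe and 0.772 for dedifferentiated cap. They were 0.741 for mature cap, 0.745 for skin and 0.662 for lamellae, as a description over libraries that share the mycelium. Of the other groups, mature cap was nearest to mature stipe, with a median correlation of 0.955.

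Mature stipe and mycelium differed at many genes, more of them lower than higher in stipe. Of 10814 genes tested, 1570 rose in mature stipe (14.5% of the genes tested) and 2291 fell (21.2%), which is 3861 genes or 35.7% (quasi-likelihood test in edgeR with Benjamini-Hochberg adjustment, called at an adjusted p under 0.05 and 2-fold or more). The libraries of both groups did not overlap for 1523 of the 1570 genes that rose and for 2030 of the 2291 that fell. Of all genes tested, 23.4% and 27.2% lay apart in those directions. The genes were called on the same libraries, so their separation largely follows from the call. A further 671 genes had an adjusted p under 0.05 with a change below 2-fold. Another 684 genes differed at least 2-fold without passing the test. With TMM scaling the median log2 fold change over all genes was -0.14. The calls were made against no change, not against that median, so the counts each way include this shift. Scaling by library size alone shifted that median by -0.17 and gave 1346 genes higher and 2658 lower. Leaving out mycelium replicate 3 gave 1348 genes higher, and leaving out mycelium replicate 2 gave 1732.

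**Figure D1:**
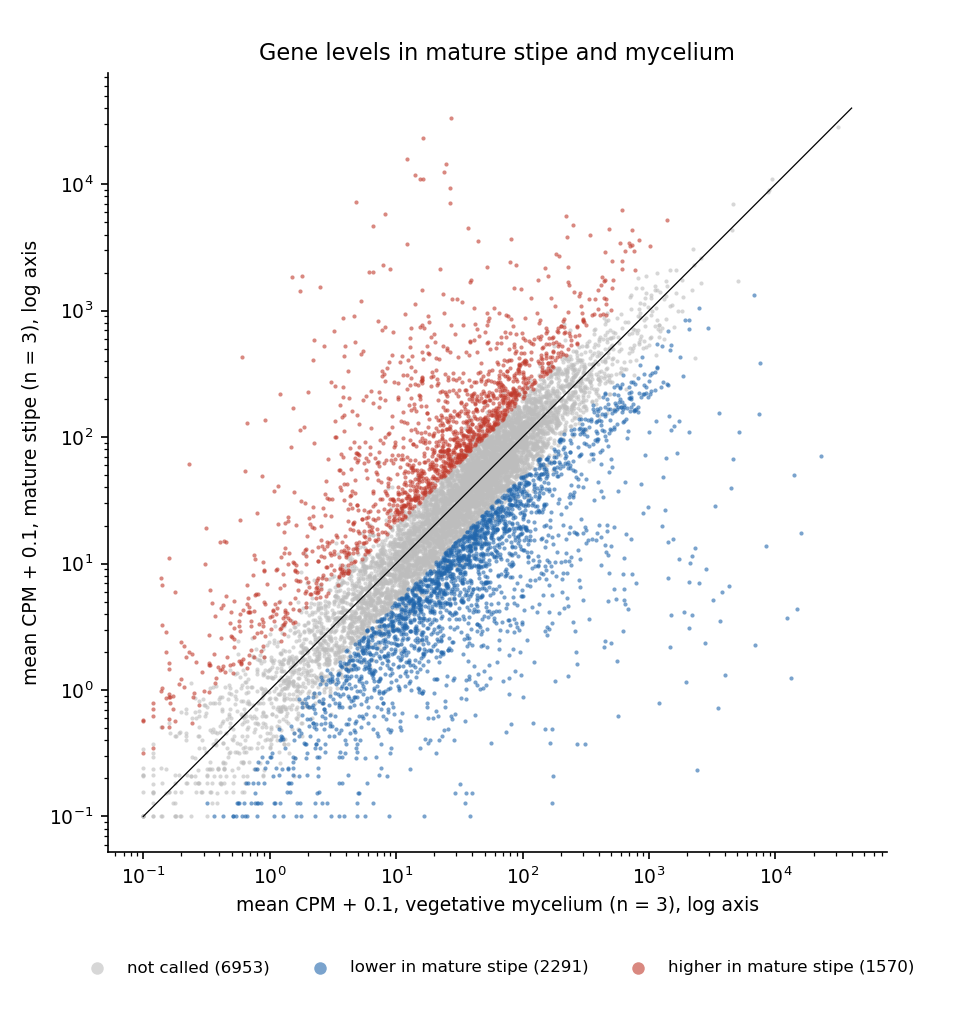
Mean CPM plus 0.1 of each gene in vegetative mycelium (x axis, log scale, 3 libraries) and mature stipe (y axis, log scale, 3 libraries); each point is a gene and the line marks equal levels. The 1570 genes that rose lie above the line and the 2291 that fell below it, and the 6953 genes not called include 684 that differ at least 2-fold without passing the test.

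The changes spanned a wide range of sizes in both directions. The median log2 fold change was 1.91 among genes that rose and -2.00 among genes that fell. At least a 4-fold change was seen in 729 of the genes that rose and 1140 of those that fell. At least a 16-fold change was seen in 209 and 333 genes, at least 64-fold in 65 and 118, and at least 256-fold in 24 and 51. Of the 118 genes that fell at least 64-fold, 19 had a count of 0 in all 3 stipe libraries, and of the 65 that rose as much, 2 had a count of 0 in all 3 mycelium libraries. The fitted folds of those genes depend on the small count that the model adds. Counts were fractions in at least 1 library for 460 of the genes that rose (29.3%) and 476 of those that fell (20.8%), beside 24.4% of all genes tested, so reads of such genes may be divided with another gene, and their values are uncertain.

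Most genes reached the same threshold of level on both sides. On the per-length scale of FPKM, 9401 of 10755 genes reached a level of at least 1 in all 6 libraries. There were 67 genes at 1 FPKM or more in every stipe library and below it in every mycelium library, and 65 of them passed the test. In the other direction there were 144 genes, and 136 of them passed. Most were low even where they were seen: the median of their mean FPKM was 2.86 in stipe for the stipe-side genes and 4.30 in mycelium for the mycelium-side genes. The stipe-side count was 127 without mycelium replicate 2. Of the 67 stipe-side genes, 62 had a mean of at least 1 FPKM in mature cap (92.5%, beside 92.7% of all genes), 44 in young stipe (65.7%, beside 91.0%), 40 in stage 1 primordia (59.7%, beside 92.1%) and 26 in dedifferentiated cap (38.8%, beside 93.1%). Of the 144 mycelium-side genes, 83 had a mean of at least 1 FPKM in dedifferentiated cap (57.6%, beside 93.1% of all genes). There were 69 in lamellae (47.9%, beside 94.0%), 40 in young stipe (27.8%, beside 91.0%) and 21 in mature cap (14.6%, beside 92.7%). All 67 stipe-side genes had counts in at least 1 mycelium library, and 3 of the mycelium-side genes had a count of 0 in all stipe libraries, so the split is one of level. The number of genes at 1 FPKM or more was 9958 ± 27.3 in stipe and 10118 ± 27.3 in mycelium (mean ± SD, n = 3 and 3; exact two-sided permutation p = 0.1, the smallest that 3 against 3 can give).

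Much of the stipe's RNA came from genes that rose. They held 46.8%, 48.8% and 50.3% of the counts in stipe replicates 1, 2 and 3, and 7.69%, 6.85% and 7.14% in the mycelium replicates. Genes that fell held 4.90%, 4.72% and 5.47% of the counts in stipe, and 45.5%, 39.3% and 43.0% in mycelium. These shares follow from how the genes were called and show how much of each transcriptome the change involved. Among the 50 most abundant genes of mature stipe 41 had risen and 0 had fallen, and 9 of these 50 were also among the 50 most abundant of mycelium. Among the 50 most abundant genes of mycelium 37 had fallen in stipe. Over all genes tested, 14.5% rose and 21.2% fell. Both lists of 50 were picked by level in libraries that also made the calls, so these counts only describe them. How far a few genes dominated a library did not differ beyond the spread: the 10 most abundant genes held 14.6 ± 0.614% of the counts in stipe and 15.7 ± 4.88% in mycelium (mean ± SD, n = 3 and 3; exact two-sided permutation p = 0.7). Their share was 20.9% in mycelium replicate 2, and without that library the difference changed sign, to 1.42 percentage points more in stipe.

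**Figure D2:**
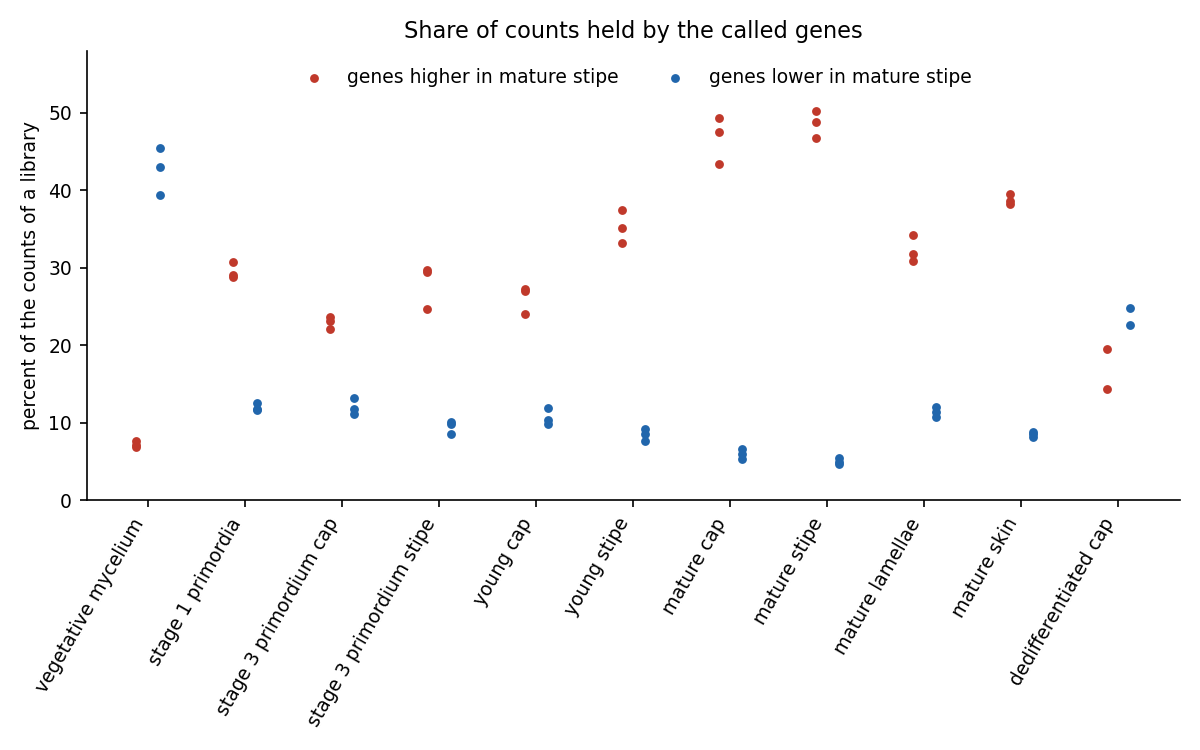
Percent of the counts of each library (y axis) held by the genes that rose in mature stipe against mycelium and by the genes that fell, for the 11 groups; each point is a library. The genes that rose held 46.8 to 50.3% of the stipe counts and 6.85 to 7.69% of the mycelium counts.

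The gene that rose to the highest stipe level averaged 26.9 CPM in mycelium, beside a median of 29.7 CPM over genes there. Mycelium replicate 2 lay above that median, and replicates 1 and 3 lay below it. Gene 8676, with a coding length of 1713 bases, was at 31026, 34862 and 34314 CPM in stipe replicates 1 to 3, and at 10.97, 61.2 and 8.57 CPM in the mycelium replicates. The stipe libraries were close together and far above every mycelium library. Its log2 fold change was 10.28 ± 0.86 (SE; edgeR, Benjamini-Hochberg adjusted p = 7.1e-10), and 11.74 without mycelium replicate 2. It is the gene of highest stipe level among those that rose and met the naming conditions, namely whole-number counts, groups that do not overlap, and 10 or more counts on average in each group. Its level was already 14300 ± 5467 CPM in stage 1 primordia (mean ± SD, n = 3), and it was 9807 ± 1415 in young stipe and 18270 ± 9429 in mature cap. Lamellae held less, at 2111 ± 1466 CPM.

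Gene 5717, of 960 coding bases, had the largest rise under the same conditions in the fit used here. It was at 16463, 18008 and 13393 CPM in stipe and at 5.04, 26.4 and 5.02 CPM in mycelium, with a log2 fold change of 10.37 ± 1.01 (SE; edgeR, Benjamini-Hochberg adjusted p = 9.0e-09). Without mycelium replicate 2, the highest mycelium library for genes 5717 and 8676, its log2 fold change was 11.63, below the 11.74 of gene 8676. With limma on FPKM the order was also the other way, at 10.63 against 10.69 with a pseudocount of 1 and 10.79 against 10.84 with 0.1. Along the stipe, gene 5717 stood at 1154 ± 232 CPM in stage 1 primordia, 1887 ± 1695 in stage 3 stipe and 3791 ± 555 in young stipe (mean ± SD, n = 3 each). The levels of stage 1 and stage 3 overlapped, and those of young and mature stipe did not.

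A pair of genes with consecutive numbers headed the genes that fell. Gene 11462, of 834 coding bases, was at 21897, 7525 and 14753 CPM in mycelium and at 1.53, 10.4 and 0.830 CPM in stipe. Its log2 fold change was -11.76 ± 1.26 (SE; edgeR, Benjamini-Hochberg adjusted p = 4.2e-08), the largest fall under the naming conditions. Gene 11463, of 906 coding bases, was at 24901, 10560 and 12577 CPM in mycelium and at 13.7, 24.1 and 13.9 CPM in stipe, with a log2 fold change of -9.86 ± 0.63 (SE; edgeR, Benjamini-Hochberg adjusted p = 7.2e-12). It had the highest mycelium level among the genes that fell under those conditions. For both genes stipe replicate 2 was the highest stipe library, and without it the log2 fold change of gene 11462 was -13.60. That of gene 11462 was -12.37 with limma on FPKM plus 0.1. Both were lower at each step from mycelium to young stipe. Gene 11462 had means of 361 CPM in stage 1 primordia, 6.34 in stage 3 stipe and 1.03 in young stipe. Gene 11463 had 641, 24.8 and 5.72. From young to mature stipe gene 11463 was higher again, at a mean of 17.3 CPM. Its log2 fold change there was 1.59 ± 0.45 (SE; edgeR, Benjamini-Hochberg adjusted p = 0.0062). That of gene 11462 was 2.03 ± 0.89, which did not pass the test (edgeR, Benjamini-Hochberg adjusted p = 0.071). Per length, their mycelium means were 17695 and 17713 FPKM, close to the 19523 FPKM of gene 8676 in stipe.

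**Figure D3:**
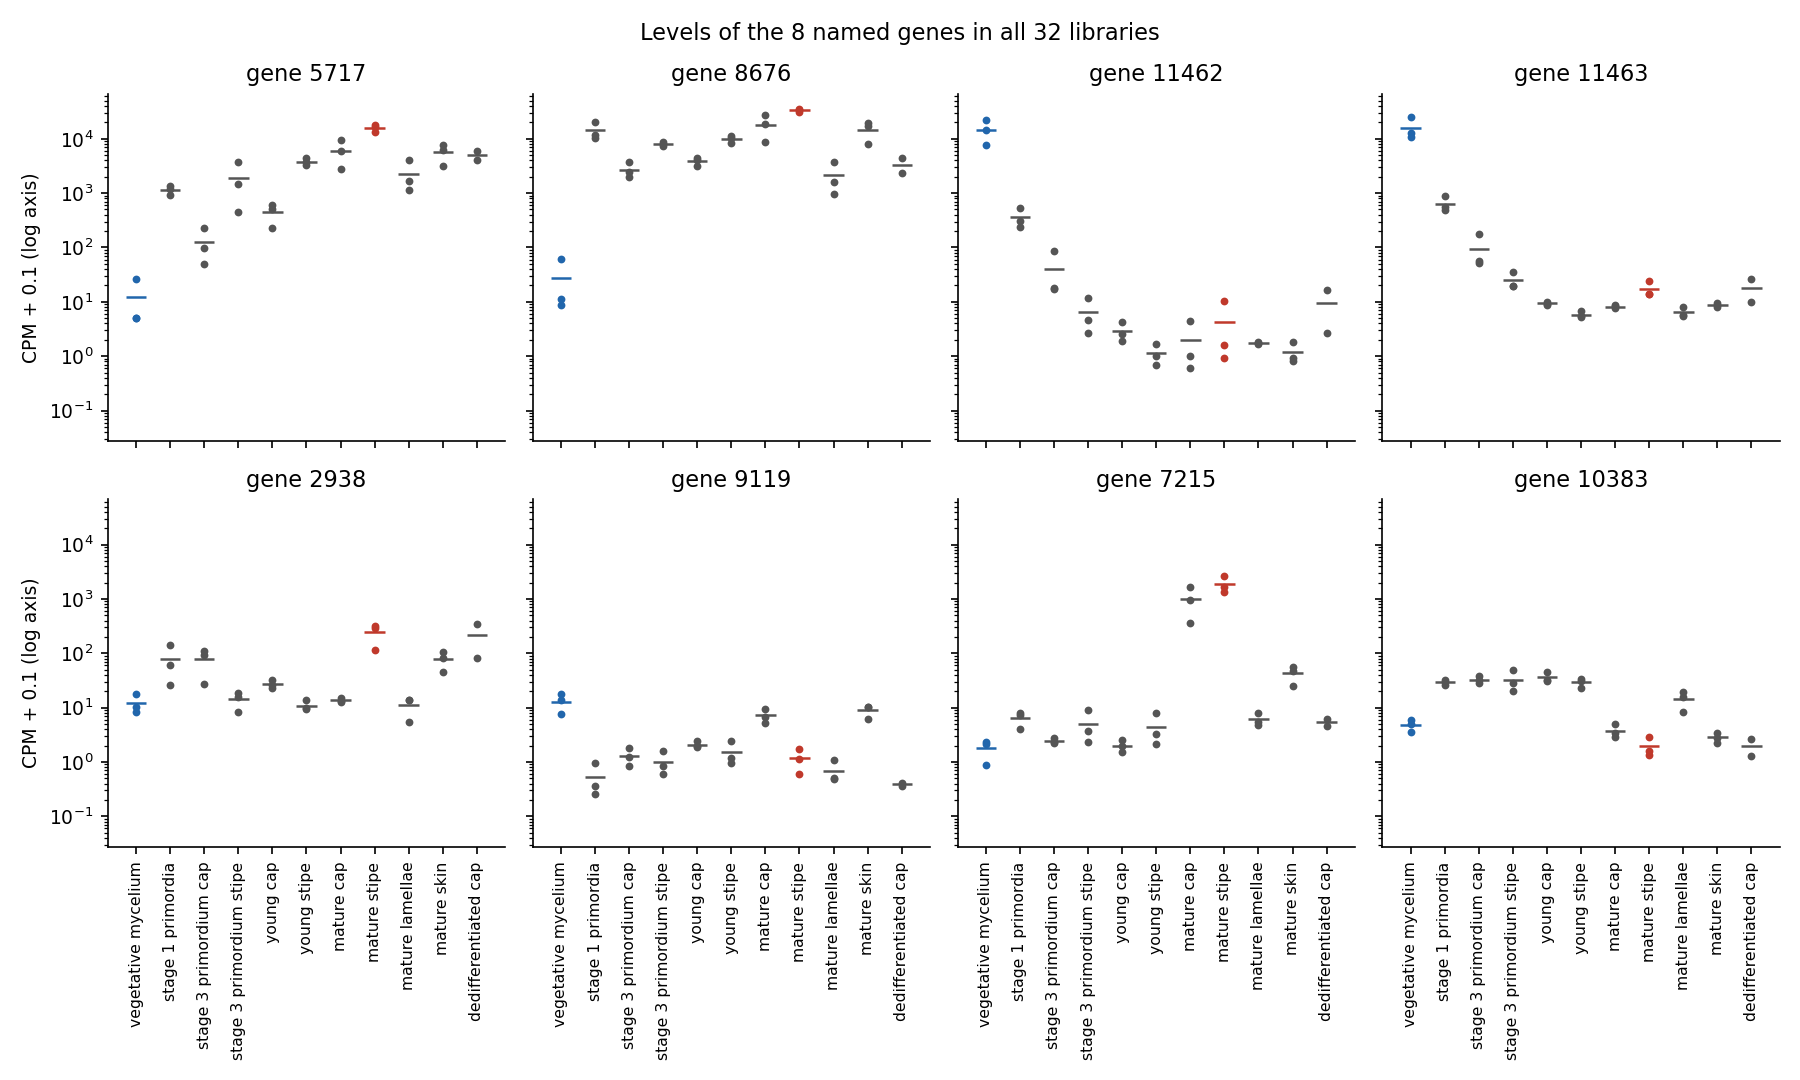
CPM plus 0.1 (log axis) of the 8 named genes in all 32 libraries, by group; points are libraries, short lines are group means, and mycelium and mature stipe are coloured. Genes 8676 and 5717 have their lowest group mean in mycelium and their highest in mature stipe, and genes 11462 and 11463 average 14725 and 16013 CPM in mycelium and 4.24 and 17.3 in mature stipe.

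Genes that changed the same way often had neighbouring numbers. Of the genes that fell and whose next number was tested, 637 of 2181 (29.2%) were followed by another gene that fell, beside 21.2% of all genes. Of the genes that rose, 326 of 1515 (21.5%) were followed by a gene that rose, beside 14.5% of all genes. Runs of at least 5 consecutive numbers numbered 15 for genes that fell, the longest with 8 genes, and 4 for genes that rose. The files do not say whether the numbers follow the order of genes on the chromosomes or families of like genes.

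The share of genes that fell was larger among low-level genes, and the share that rose was larger among high-level ones. When genes were split into 5 equal bins by the mean of their log2 FPKM in both groups, 29.0% of the lowest bin fell and 11.9% rose. In the highest bin, 13.7% fell and 19.9% rose. The middle bin stood between, with 20.1% and 14.5%. Shares varied less with coding length. The share that rose was 13.5% in the shortest of 4 bins (27 to 513 bases) and 15.4% in the longest (1566 to 12114 bases), and the share that fell was 21.8% and 20.8%. Median coding lengths were 1009.5 bases for genes that rose, 969 for genes that fell and 975 for all genes with a length.

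**Figure D4:**
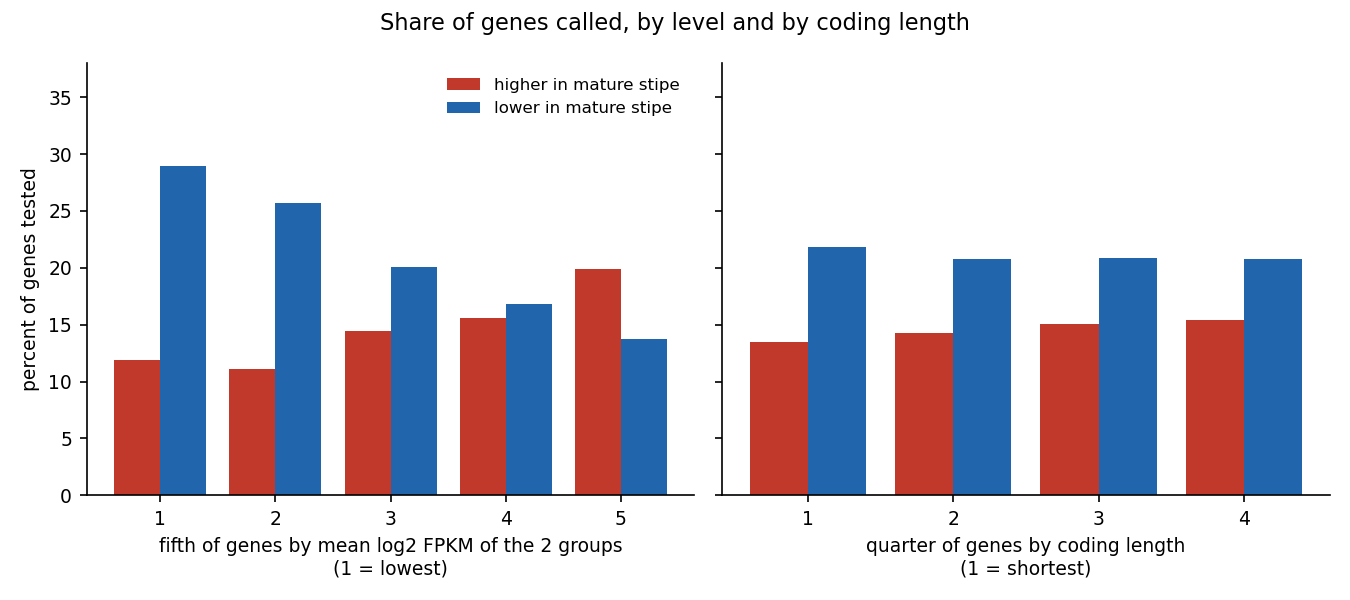
Percent of genes tested (y axis) that rose or fell in mature stipe against mycelium, by 5 bins of mean log2 FPKM of the compared groups (left) and by 4 bins of coding length (right). From the lowest to the highest bin the share that fell runs from 29.0 to 13.7% and the share that rose from 11.9 to 19.9%, while across the length bins they run from 13.5 to 15.4% for genes that rose and from 20.8 to 21.8% for genes that fell.

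The 2 directions had unlike courses through the stages. The genes that rose had a median of 20.1 CPM in mycelium, 46.8 in stage 1 primordia, 46.5 in stage 3 stipe, 54.4 in young stipe and 95.2 in mature stipe. Their median thus stepped up between mycelium and primordia and again between young and mature stipe. The genes that fell had a median of 33.8 CPM in mycelium, 7.01 in stage 1 primordia, 6.16 in stage 3 stipe, 5.34 in young stipe and 6.55 in mature stipe, so their median was low from the first fruiting stage. Over all genes tested the median lay between 22.8 and 29.7 CPM in these 5 groups. Along this series of groups, 1066 of the 1570 genes that rose had their highest mean log2 CPM in mature stipe, 178 in young stipe, 205 in stage 3 stipe and 121 in stage 1 primordia. The share in mature stipe was 67.9%, beside 24.2% of all genes tested. Of the 2291 genes that fell, 927 had their lowest mean in mature stipe, 608 in young stipe, 524 in stage 3 stipe and 232 in stage 1 primordia. The share in mature stipe was 40.5%, beside 23.2% of all genes tested. These genes were chosen for their level in mature stipe against mycelium, so the shares only describe them. The order of single neighbouring groups was not tested for these genes.

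Step by step, the median log2 fold changes of the called genes were as follows. Genes that rose had 1.104 in stage 1 primordia against mycelium, 0.18 in young stipe against stage 1 primordia and 0.74 in mature against young stipe. Genes that fell had -1.96, -0.30 and 0.08. Over all genes tested these were -0.14, -0.08 and 0.10. The first step shares the mycelium libraries with the comparison that picked the genes and the last step shares the stipe libraries, so those medians are set side by side as a description.

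**Figure D5:**
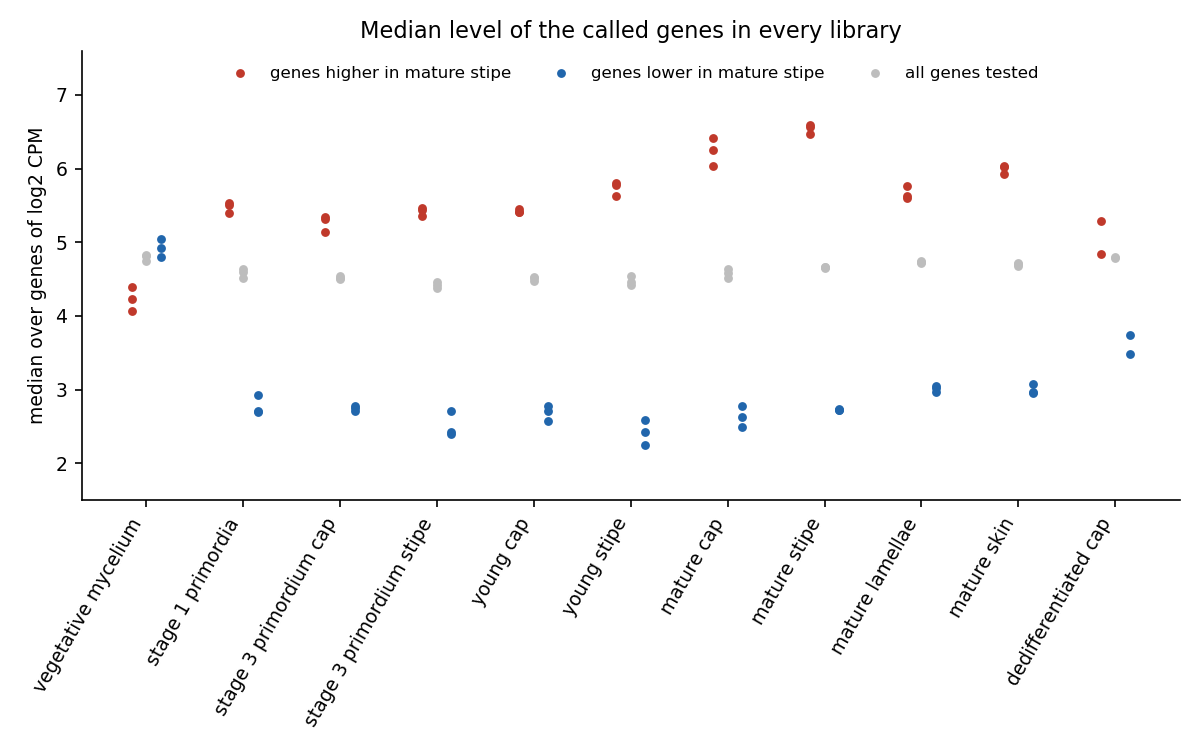
Median over genes of log2 CPM (y axis) in each library, by group, for the genes that rose in mature stipe against mycelium, the genes that fell and all genes tested; each point is a library. The genes that rose are highest in mature stipe (6.47 to 6.59) and lowest in mycelium (4.06 to 4.39), and the genes that fell drop from 4.80 to 5.04 in mycelium to 2.72 to 2.74 in mature stipe.

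Other tissues of the mature body stood on the same side as the stipe to different degrees. Genes that rose had medians of 75.8 CPM in mature cap, 66.3 in skin, 51.7 in lamellae and 35.0 in dedifferentiated cap, beside 95.2 in mature stipe. The genes that fell had 6.32 in mature cap, 7.98 in skin, 8.32 in lamellae and 12.6 in dedifferentiated cap, beside 6.55 in mature stipe. Dedifferentiated cap, with 2 libraries, was thus the fruiting group nearest to mycelium by both medians. Over all 11 groups, 612 of the genes that rose had their highest mean in mature stipe, 250 in mature cap and 175 in lamellae. Of the genes that fell, 1428 had their highest mean in mycelium and 437 in dedifferentiated cap. The genes were chosen for their levels in mature stipe and mycelium, so these counts only describe them. The same shares over all genes tested were not taken.

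The largest changes are given by tissue. Counts were fractions in at least 1 library for 28 of the 65 genes that rose at least 64-fold and 28 of the 118 that fell as much, so those values are uncertain. The 65 genes that rose at least 64-fold had a median of 4.58 CPM in mycelium, 151 in stage 1 primordia, 281 in young stipe, 741 in mature stipe, 905 in mature cap and 306 in lamellae, but 23.9 in dedifferentiated cap. Of these 65, 55 were at a mean of at least 10 CPM in stage 1 primordia, 61 in mature stipe and 44 in dedifferentiated cap. The median over all genes tested was 25.1, 25.5 and 29.1 CPM in these groups, so most genes pass that level. The share of all genes that pass it was not counted, and the 65 were picked for their rise in stipe. The 118 genes that fell at least 64-fold had a median of 257 CPM in mycelium, 1.04 in stage 1 primordia, 1.07 in mature stipe and 2.46 in dedifferentiated cap. Across the fruiting groups the median of these 118 genes ran from 0.685 CPM in young stipe to 2.46 in dedifferentiated cap.

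Whether the called genes also moved in libraries that took no part in the comparison was asked in comparisons without mature stipe or mycelium. In mature against young cap, 604 of the 1570 genes that rose were higher (38.5%), beside 19.0% of all genes tested (35.9% were called in either direction), with a median log2 fold change of 0.71 beside 0.03. Of the 2291 genes that fell, 458 were lower in mature cap (19.99%), beside 16.9% of all genes, and their median was -0.13. The first share is above the background, and the second is near it. With library size alone, 713 of 2658 genes that fell were lower (26.8%), beside 23.3% of all genes. In young stipe against stage 1 primordia, 75 genes that had risen were higher (4.78%), beside 1.03% of all genes, and 150 that had fallen were lower (6.55%), beside 2.94% (3.97% of all genes were called in either direction). Both counts moved with single libraries. The first was 36 and 43 when stage 1 replicate 1 or 2 was left out and 37 when young stipe replicate 1 was. The shares were then 2.29%, 2.74% and 2.37%, beside 0.435%, 0.555% and 0.573% of all genes. The second was 68 when stage 1 replicate 1 was left out, and 49 and 80 when young stipe replicate 1 or 3 was, which is 2.97%, 2.15% and 3.53%, beside 1.23%, 0.906% and 1.54% of all genes. All of these calls used edgeR with the same thresholds.

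Stipe and mature cap were set side by side against mycelium. For the genes that rose in stipe, the median log2 difference between mature cap and mycelium was 1.69, beside 1.91 in stipe, and for the genes that fell it was -2.00 in both. These comparisons share the mycelium libraries, and the genes were picked for their change in stipe, so the medians only describe them. Testing stipe against cap directly asks where they differ. By that test 82 of the 1570 genes that rose against mycelium were also higher in stipe than in cap (5.22%), beside 1.46% of all genes tested, and 9 of the 2291 that fell were also lower in stipe than in cap (0.393%), beside 0.222% (1.68% of all genes were called in either direction). Others went the other way. Of the genes that rose, 5 were lower in stipe than in cap (0.318%, beside 0.222% of all genes). Of the genes that fell, 23 were higher in stipe than in cap (1.004%, beside 1.46%). The stipe libraries enter both tests. Both counts moved with single libraries. Leaving out stipe replicate 1 or 2 gave 25 and 44 for the first, and leaving out cap replicate 1 or 3 gave 29 and 36. These are 1.74%, 3.06%, 1.85% and 2.30%, beside 0.453%, 0.721%, 0.462% and 0.592% of all genes. For the second, leaving out stipe replicate 1, 2 or 3 gave 0, 1 and 18, beside 4, 4 and 36 among all genes, and leaving out stage 3 stipe replicate 3 gave 16, beside 46. A difference that missed the test here does not show that stipe and cap were alike for that gene.

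Gene 2938, of 714 coding bases, had the largest rise over cap among genes that met the naming conditions in both comparisons. It was at 321, 287 and 116 CPM in mature stipe, at 15.1, 12.97 and 12.5 CPM in mature cap and at 8.30, 17.7 and 10.3 CPM in mycelium. All 3 stipe libraries were above all cap and mycelium libraries, and replicate 3 was the lowest of the stipe. Its log2 fold change was 4.16 ± 0.64 against cap (SE; edgeR, Benjamini-Hochberg adjusted p = 0.000698) and 4.32 ± 0.65 against mycelium (adjusted p = 6.6e-06). The gene was not confined to mature stipe, since dedifferentiated cap held 348 and 82.3 CPM and stage 1 primordia 60.4, 144 and 25.6. It was at 10.8 ± 2.51 CPM in young stipe (mean ± SD, n = 3).

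Gene 9119, of 1332 coding bases, had the largest fall below cap in the same way. It was at 0.509, 1.05 and 1.66 CPM in mature stipe, at 5.20, 6.57 and 9.45 CPM in mature cap and at 17.6, 7.41 and 13.4 CPM in mycelium. The stipe libraries were below all libraries of both other groups, which overlapped each other. Its log2 fold change was -2.71 ± 0.55 against cap (SE; edgeR, Benjamini-Hochberg adjusted p = 0.0084) and -3.57 ± 0.57 against mycelium (adjusted p = 1.4e-05). Against cap the call was lost when stipe replicate 1 or 2 was left out, with an edgeR Benjamini-Hochberg adjusted p of 0.0875 and 0.0538. With limma on FPKM plus 1 the log2 change against cap was -1.78. Its counts were only 6 to 20 in the stipe libraries. Skin had a like level to cap, at 8.76 ± 2.32 CPM (mean ± SD, n = 3). The low level was not confined to mature stipe. Means were 1.41 CPM in young stipe, 0.896 in stage 3 stipe, 0.425 in stage 1 primordia, 0.596 in lamellae and 0.287 in dedifferentiated cap. Young cap was at 1.98 CPM, and mature cap was higher by 1.83 on the log2 scale (edgeR, Benjamini-Hochberg adjusted p = 0.0059).

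A last pair of genes differed between mature and young stipe, and also between mature and young cap. Gene 7215, of 471 coding bases, was at 1368, 1633 and 2589 CPM in mature stipe but at 2.00, 3.11 and 7.73 CPM in young stipe and at 2.25, 2.06 and 0.768 CPM in mycelium. Its log2 fold change was 8.76 ± 0.73 against young stipe (SE; edgeR, Benjamini-Hochberg adjusted p = 2.6e-09) and 10.11 ± 0.77 against mycelium (adjusted p = 1.6e-10). Among the other tissues it was high in mature cap, at 360, 973 and 1673 CPM, and far lower in skin, at 42.8 ± 15.9, and in lamellae, at 5.999 ± 1.57 (mean ± SD, n = 3 each). The change against young stipe was 9.50 on the log2 scale without young stipe replicate 3. Gene 7215 was also higher in mature than in young cap, by 9.06 on the log2 scale (edgeR with Benjamini-Hochberg adjustment, adjusted p = 2.08e-09). Gene 10383, of 885 coding bases, was at 2.80, 1.21 and 1.49 CPM in mature stipe, at 30.9, 22.9 and 33.8 CPM in young stipe and at 5.75, 3.47 and 4.96 CPM in mycelium. It fell against young stipe, with a log2 fold change of -3.99 ± 0.42 (SE; edgeR, Benjamini-Hochberg adjusted p = 6.1e-08), and against mycelium, with -1.37 ± 0.39 (adjusted p = 0.0064). The mean of gene 10383 was 35.9 CPM in young cap and 3.68 in mature cap, a log2 difference of -3.28 (edgeR with Benjamini-Hochberg adjustment, adjusted p = 6.06e-07). Its course was not one-way, since stage 1 primordia were above mycelium, at 29.2 ± 2.88 CPM against 4.73 ± 1.16 (mean ± SD, n = 3 each; log2 fold change 2.62 ± 0.38, adjusted p = 3.02e-06).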

How the data were processed

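The deposited tables hold expected counts per gene (estimated, in part fractional; 95.2% of values above 0 were whole within 0.000001), rounded here. The authors also deposited log2 FPKM values. STAR, featureCounts, R 3.0.2, edgeR 3.4.2 and limma 3.18.13 are named, without roles, per the submitters' processing notes; the sources used here give no build, and the FPKM table carries the label PleosPC15. The deposited log2 values equalled log2 of counts plus 0.5 per coding length and TMM-scaled total, so 1 length per gene was recovered, each a multiple of 3 (tolerance 0.2 base). Per the labels' protocols, libraries were stranded, from poly(A) RNA, with 2 reads of 150 bases.

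Tests used edgeR 4.0.16 (R 4.3.3): filterByExpr by group (10814 of 12329 genes), TMM, and robust quasi-likelihood with 1 mean per group over all 32 libraries, checked on simulated counts. Groups came from sample titles. SE is the log2 fold change over the root of the F statistic. Adjusted p is Benjamini-Hochberg over all genes tested. Alternatives were DESeq2 1.42.0 size factors and test, limma 3.58.1 on log2(FPKM + 1) and log2(FPKM + 0.1), no scaling or filter, other thresholds, the compared groups alone, whole-number genes, the replicate number as a block, and leaving out libraries. Replicate numbers are in the titles. Deviations from the group means had correlations of 0.111, 0.107 and 0.267 between same-numbered stipe and mycelium libraries. They were -0.191 to 0.018 between unlike numbers, which centring within a group pushes down. Whether the numbers mark a pairing was not tested, and the main fit used none. Precision is limited by 3 libraries per group. Counting error is small at these totals for genes with high counts. It is not small for low counts, such as the 6 to 20 of gene 9119 in stipe. Of the identifiers, 0 matched the reference list. No replicates were identical, and chi-square per degree of freedom was at least 19.1 within groups.

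Genes, lists and tests were chosen with earlier results of these data known. The rule names, under the conditions in the report, the largest change and the highest level each way against mycelium, and the largest change each way against mature cap and against young stipe in the same direction.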

Additional observations from a re-analysis of the deposited data

Results flagged for a closer look

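Results are listed here because mature stipe and mature cap, set against the same mycelium, differed in the direction named by the direct test of stipe against cap in edgeR. Of genes that rose against mycelium, 82 were also higher than cap (5.22%, beside 1.46% of all genes) and 5 were lower (0.318%, beside 0.222%). Of genes that fell, 9 were also lower than cap (0.393%, beside 0.222%) and 23 were higher (1.004%, beside 1.46%). The 9 became 0 and 1 without stipe replicate 1 or 2. Gene 2938 had a log2 fold change of 4.16 against cap and gene 9119 had -2.71. The call of gene 9119 was lost without stipe replicate 1 or 2, with an edgeR Benjamini-Hochberg adjusted p of 0.0875 and 0.0538. The cause of these differences was not tested.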

How the results depend on the processing

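The count of called genes in mature stipe against mycelium was 3398 to 4080 when 1 library was left out (1348 to 1732 higher, 1961 to 2411 lower). Other settings kept it within 1.5 times of 3861, except a 4-fold threshold, which left 1869 (729 higher, 1140 lower). Under 28 refits 0 called genes were called in the opposite direction, and 1141 of the genes that rose and 1525 of those that fell were called in all 6 fits without 1 stipe or mycelium library. The replicate block gave 3809 genes (1574 higher, 2235 lower) and changed no call on a named gene. Of genes that rose, those also higher than cap numbered 25 to 116 without 1 library and 26 at 4-fold. The 25 and 116 are 1.74% and 6.95%, beside 0.453% and 2.02% of all genes in the same fits. Of genes that fell, those also lower than cap numbered 0 to 18, 29 with the DESeq2 test and 5 at 4-fold. The 18 and 29 are 0.859% and 1.22%, beside 0.333% and 0.675% of all genes. For young stipe against stage 1 primordia the counts were 36 to 101 and 49 to 201 without 1 library. They were 24 and 48 at 4-fold, and 123 higher with the DESeq2 test. The 36 and 101 are 2.29% and 6.44%, beside 0.435% and 1.47% of all genes. The 49 and 201 are 2.15% and 8.34%, beside 0.906% and 3.81%, and the 123 are 7.47%, beside 1.83%. For mature against young cap the counts were 540 to 712 and 386 to 530, 223 and 117 at 4-fold, and 713 lower with library size alone. The 540 and 712 are 35.0% and 41.1%, beside 19.4% and 19.6% of all genes. The 386 and 530 are 19.7% and 22.0%, beside 16.7% and 18.4%, and the 713 are 26.8%, beside 23.3%. Shares over all genes were not taken at 4-fold. The difference in the share of the 10 most abundant genes ran from -3.42 to 1.42 percentage points without 1 library. Genes on the stipe side of 1 FPKM numbered 73 to 127 and on the mycelium side 160 to 192 without 1 library, and the mycelium side held 80 at 0.5 FPKM and 245 at 2 FPKM. Median coding length was 40.5 bases longer in genes that rose than in genes that fell, 39 to 57 without 1 library, 55.5 with library size alone and 27 at 4-fold. Fewer genes can pass a higher fold threshold. The counts on 1 side of the FPKM threshold cannot fall when a library is left out, since every library must meet the condition. The cause of the other shifts was not tested.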
